A study of Mus musculus with 12 samples.

Results

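The 10 genes described here encode secreted and surface factors of the bone marrow stroma and the bone matrix: Cxcl12, Kitl, Lepr, Il7, Csf1, Angpt1, Col1a1, Col1a2, Sparc and Bglap. They were chosen by name, and each matched 1 of the 34745 genes of the deposited count table. Bone marrow cells of 12 male ICR mice, an outbred strain, were sequenced as total RNA after removal of ribosomal RNA, with 3 mice in each of 4 groups; their age is not given in the sources used here. The normal group received saline and vehicle. In the model group cyclophosphamide, a cytotoxic drug that alkylates DNA, was injected at 80 mg/kg per day on days 5 to 7, with oral vehicle. The QJSB group received that cyclophosphamide and Qi Jing Sheng Bai granule, a herbal formula, by mouth at 3 g/kg per day, and the leucogen group received it with leucogen, a drug given against low leucocyte counts, at 20 mg/kg per day, each for 1 week. Cyclophosphamide was thus shared by 3 of the 4 groups, and no group received a drug without it.

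Blood stem cells and B-cell precursors of the marrow live next to perivascular reticular cells, which are known to release the chemokine CXCL12, stem cell factor and interleukin 7 and to carry the leptin receptor. Bone-forming osteoblasts of the inner bone surface make type I collagen and osteocalcin. Marrow washed out of a bone holds few cells of either kind beside blood cells, and in such bulk samples fewer cells of a type and less RNA per cell cannot be told apart.

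Library totals ran from 11172547 to 18545198 counts, and the 10 genes together made up 0.02% to 0.106% of them. Values below are CPM, read counts relative to the library total after scaling with the factors of the trimmed mean of M values (TMM) over the 12 libraries, unless called unscaled; levels of different genes are compared only in FPKM, which the authors corrected for transcript length. Each of the 6 pairs of groups was fitted over all genes with the quasi-likelihood test of edgeR, and fold changes are on the log2 scale. A gene was called, and is said to have risen or fallen, at a fold change over 1.5 with a Benjamini-Hochberg adjusted p under 0.05. The cutoff of the study's methods, the same fold change with an unadjusted P under 0.05, is given where it differs. The table heads its columns Blank, Model, Positive and Stilbene, names that the sample labels do not use apart from model, and Blank was taken as normal, Positive as leucogen and Stilbene as QJSB. Stromal markers were low but present: all 12 markers of reticular stroma had counts, at a summed level of 55.8 to 122 CPM per library, and the 15 osteoblast markers summed to 82.2 to 140 CPM, with Bglap3 and Mepe at no more than 10 counts over all 12 libraries.

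The first libraries of the model and QJSB groups stood apart from the other libraries of their groups, and this touches nearly every value that follows. In both groups replicate 1 was the highest of the 3 libraries for 9 of the 10 genes, with Csf1 as the exception, against 7 of 10 in leucogen and 2 of 10 in normal. The CPM of Col1a1 in replicate 1 was 3.92 times the mean of replicates 2 and 3 in model and 6.36 times in QJSB. For Cxcl12 the ratio was 2.67 in model and 2.93 in QJSB. Summed markers of reticular stroma moved with these libraries, at 122 CPM in model replicate 1 against 63.0 and 64.4 CPM, and at 114 CPM in QJSB replicate 1 against 55.8 and 57.4 CPM. Summed osteoblast markers did so too, at 140 CPM against 82.2 and 89.7 CPM in model and at 128 CPM against 86.0 and 83.5 CPM in QJSB. Most of this sum was a single gene, the transcription factor Runx2. It ran from 53.0 to 93.4 CPM over the model libraries and from 64.3 to 80.7 CPM over the QJSB libraries. Skeletal muscle markers followed in QJSB, at 110 CPM in replicate 1 against 20.3 and 21.6 CPM, but not in model, where replicate 1 was the lowest at 19.4 CPM, and the highest of the 12 was normal replicate 3 at 212 CPM. Other lists were also highest in model replicate 1: megakaryocyte markers at 966 CPM against 383 and 458 CPM, and osteoclast markers at 427 CPM against 188 and 235 CPM. Macrophage (400 against 354 and 243 CPM) and endothelial markers (184 against 140 and 151 CPM) were so too. In QJSB replicate 1 this held for endothelial markers (188 against 163 and 164 CPM) but not for megakaryocyte, osteoclast or macrophage markers. Whether the libraries took up different amounts of stroma when the marrow was collected was not tested.

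**Figure D1:**
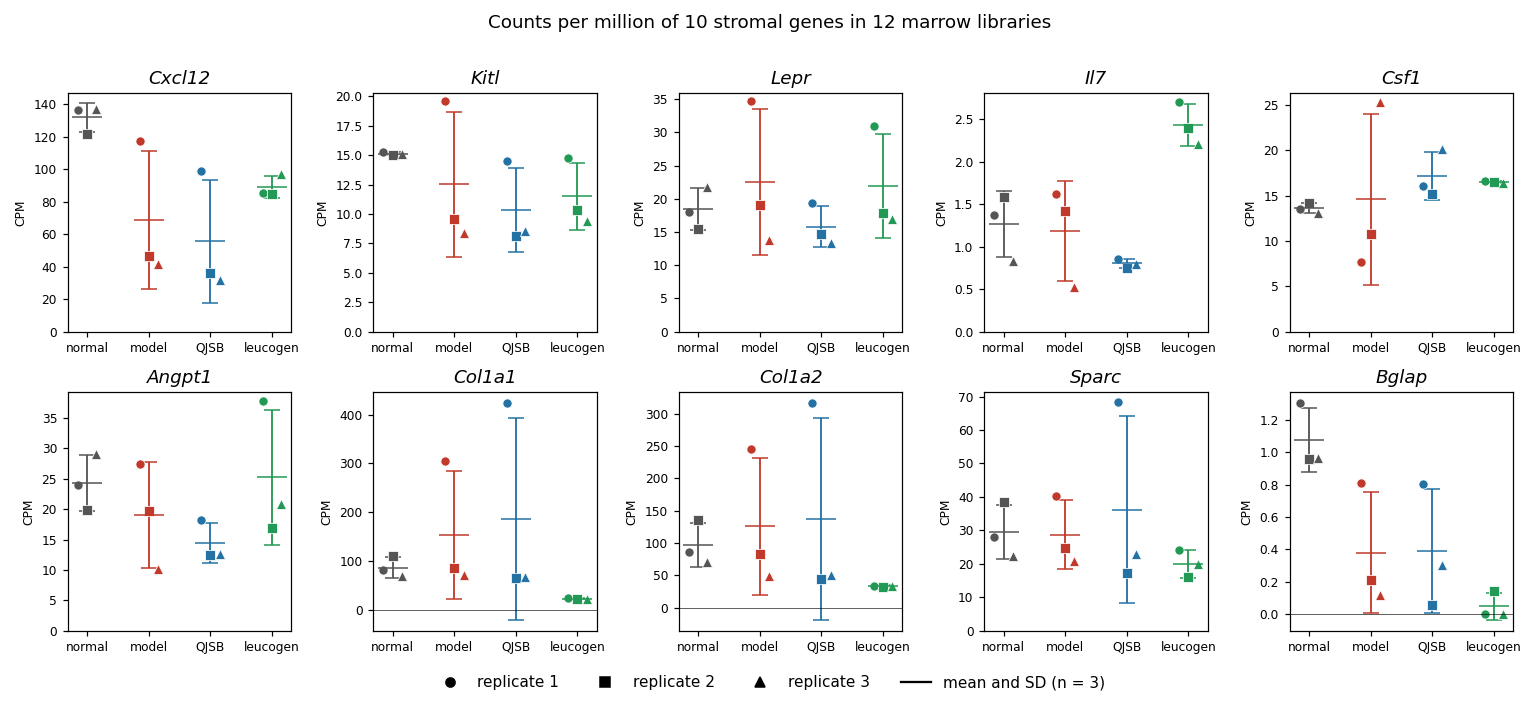
CPM (vertical axes, 1 panel per gene, linear and each with its own scale) of the 10 genes in the 3 libraries of each of the 4 groups; points are libraries, with the replicate number as the symbol, and bars are the mean and SD (n = 3). Circles (replicate 1) sit far above the other libraries in model and QJSB for Cxcl12, Col1a1 and Col1a2, while the 3 leucogen libraries lie close together at 21.4 to 24.2 CPM for Col1a1.

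**Figure D2:**
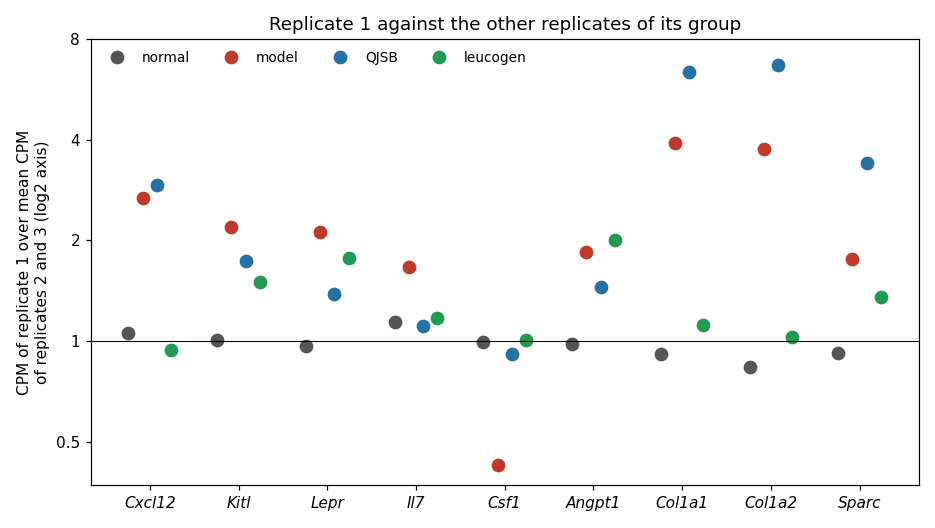
CPM of replicate 1 divided by the mean CPM of replicates 2 and 3 of the same group (vertical axis, log2 scale) for 9 of the genes, with 1 point per group; Bglap is left out because its counts are near 0. Model and QJSB points lie above 1 for every gene shown except Csf1, and reach 6.36 for Col1a1 in QJSB, while the normal points stay between 0.836 and 1.14.

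The promoters of Bglap and Cxcl12 are shown because these genes lay furthest apart in the leucogen group, where osteocalcin had almost no reads and Cxcl12 had the highest FPKM of the 10. The 250 bases before the RefSeq start site of each (build GRCm38.p6) are written 5′ to 3′ on the gene's strand, chr3:88384467-88384716 on the minus strand for Bglap and chr6:117168285-117168534 on the plus strand for Cxcl12. Capitals mark matches to 3 motifs, each searched on both strands. They were the CAAT box, spelled CCAAT, the TATA box, spelled TATAAA, and the site of RUNX factors, spelled AACCACA.
Bglap: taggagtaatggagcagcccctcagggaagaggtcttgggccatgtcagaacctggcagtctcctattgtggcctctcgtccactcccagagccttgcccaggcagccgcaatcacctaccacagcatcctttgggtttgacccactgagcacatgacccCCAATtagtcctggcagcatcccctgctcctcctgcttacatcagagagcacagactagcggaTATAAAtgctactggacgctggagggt
Cxcl12: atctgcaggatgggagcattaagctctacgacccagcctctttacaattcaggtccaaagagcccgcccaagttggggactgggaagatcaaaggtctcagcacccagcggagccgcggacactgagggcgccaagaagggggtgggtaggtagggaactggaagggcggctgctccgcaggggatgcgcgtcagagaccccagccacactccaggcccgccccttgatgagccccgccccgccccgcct
The Bglap window held the CAAT box beginning 90 bases and the TATA box beginning 27 bases before the start site. The Cxcl12 window held none of the 3 motifs. Other spellings of the RUNX site were not searched, so a window without this mark can still hold such a site. Of all 32851 RefSeq promoter windows of this length, 33.8% held the CAAT box, 12.4% the TATA box and 4.4% this spelling of the RUNX site. A match is a run of letters and not evidence that a protein binds there.

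Cxcl12 (ENSMUSG00000061353, chr6:117168535-117181367, plus strand, GRCm38) encodes the chemokine that holds stem cells and B-cell precursors in the marrow. It was at 137, 122 and 137 CPM in normal, at 117, 46.6 and 41.3 CPM in model, at 98.9, 36.1 and 31.5 CPM in QJSB, and at 85.5, 84.5 and 96.97 CPM in leucogen. On this TMM scale all 9 libraries that received cyclophosphamide lay below the 3 normal libraries, with replicate 1 of model nearest to them. In unscaled CPM model replicate 1, at 132, lay within the normal libraries, which ran from 119 to 136. Cxcl12 fell in QJSB against normal (log2 fold change -1.23, SE 0.42, adjusted p = 0.0477). In model against normal it differed by -0.94 (SE 0.39, adjusted p = 0.0953), which passed only the unadjusted cutoff. In leucogen against normal the difference was small and tight, at -0.55 (SE 0.0959, adjusted p = 0.000911), and stayed just under the 1.5-fold limit, which it passed with scaling to total counts (-0.61). Without model replicate 1 the value in model against normal was -1.57 (adjusted p = 0.000126), a call. The QJSB call was lost without any 1 of the 3 normal libraries (adjusted p = 0.106, 0.0949 and 0.0989) and without QJSB replicate 2 (0.131) or 3 (0.106), and it held without QJSB replicate 1. The same call was also lost with total counts for scaling (adjusted p = 0.0747) and without a filter on counts (0.113). Limma-trend on log2(FPKM + 0.1) without a filter lost it too (adjusted p = 0.0596).

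Kitl (ENSMUSG00000019966, chr10:100015630-100100413, plus strand) encodes stem cell factor, the ligand of the receptor tyrosine kinase KIT. Its normal libraries lay within 15.03 to 15.29 CPM, while model was at 19.6, 9.58 and 8.37 CPM, QJSB at 14.5, 8.11 and 8.53 CPM, and leucogen at 14.8, 10.3 and 9.41 CPM. The QJSB and leucogen libraries all lay below the normal ones, which in unscaled CPM they did not (15.7 in QJSB replicate 1 against 14.7 to 14.9 in normal), and the differences of -0.53 (adjusted p = 0.117) and -0.37 (adjusted p = 0.116) passed neither cutoff. Kitl became a call against normal without model replicate 1 (-0.74, adjusted p = 0.0151), without QJSB replicate 1 (-0.85, adjusted p = 0.00186) or without leucogen replicate 1 (-0.60, adjusted p = 0.00975). Transcripts with about the GC content of Kitl (39.3%, within 2 percentage points) shifted against normal as well. Their median log2 fold change was -0.169 in model, -0.412 in QJSB and 0.195 in leucogen. The part of this shift in the Kitl values was not tested.

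Angpt1 (ENSMUSG00000022309, chr15:42424727-42676977, minus strand) encodes angiopoietin 1, which binds the receptor TEK on endothelium and stem cells. Values were 24.0, 19.8 and 29.1 CPM in normal, 27.5, 19.7 and 10.1 CPM in model, 18.2, 12.4 and 12.7 CPM in QJSB, and 37.9, 17.0 and 20.8 CPM in leucogen. Of the 3 cyclophosphamide groups, only QJSB lay wholly below normal, though not in unscaled CPM (19.7 in QJSB replicate 1 against 19.4 in normal replicate 2), and Angpt1 fell there (log2 fold change -0.74, SE 0.217, adjusted p = 0.0262). The call was lost without normal replicate 1 (adjusted p = 0.0727) or 3 (0.0958) and without QJSB replicate 2 (0.0764) or 3 (0.0792). It was also lost with total counts for scaling (0.0539), in the joint fit of 12 libraries (0.11) and in the 3 limma-trend fits of FPKM (0.0513 to 0.0703). Transcripts with about the GC content of Angpt1 (39.3%) had a median log2 fold change of -0.412 over 1500 genes in QJSB against normal. In QJSB against leucogen their median was -0.583. The part of this shift in the Angpt1 values was not tested. An antisense gene model, Gm17473, covers 14.2% of the exonic bases of Angpt1 with 15 counts over all libraries, and how the authors' counting used strand is not given in the sources used here.

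Il7 (ENSMUSG00000040329, chr3:7569994-7613760, minus strand) encodes the cytokine that B-cell precursors need, and of the 10 genes it was the only one whose 3 leucogen libraries lay above all other libraries. It had few reads, from 9 to 34 counts per library. Levels were 1.38, 1.58 and 0.828 CPM in normal, 1.62, 1.42 and 0.520 CPM in model, 0.859, 0.753 and 0.792 CPM in QJSB, and 2.70, 2.39 and 2.21 CPM in leucogen. The highest library outside leucogen was model replicate 1, and the 3 QJSB libraries lay close together near the low end. Il7 rose in leucogen against normal (log2 fold change 0.97, SE 0.332, adjusted p = 0.0323), and it was lower in QJSB than in leucogen (-1.61, SE 0.33, adjusted p = 0.0092). In leucogen against model the difference of 1.05 (SE 0.439, adjusted p = 0.104) passed only the unadjusted cutoff. The call in QJSB against leucogen was lost with limma-trend on log2(FPKM + 0.1) (adjusted p = 0.0909) and on log2(FPKM + 1) (0.112). The call against normal was lost without any one of normal replicate 1 (adjusted p = 0.0647) or 3 (0.104) and leucogen replicate 1 (0.0874), 2 (0.0637) or 3 (0.0561), with DESeq2 (0.097), in the joint fit of 12 libraries (0.0834) and in the 3 limma-trend fits of FPKM (0.0974 to 0.144). Transcripts with about the GC content of Il7 (39.0%, within 2 percentage points) shifted the same way, with a median of 0.35 over 1357 genes in leucogen against model, 0.203 in leucogen against normal and -0.608 in QJSB against leucogen. The part of this shift in the Il7 values was not tested.

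Csf1 (ENSMUSG00000014599, chr3:107741048-107760469, minus strand) encodes the growth factor of macrophages and osteoclasts. It was even in normal, at 13.6, 14.2 and 13.1 CPM, and in leucogen, at 16.6, 16.5 and 16.4 CPM, and uneven in model, at 7.68, 10.8 and 25.3 CPM. QJSB lay at 16.1, 15.2 and 20.2 CPM, so every drug library was above every normal one. Neither difference reached 1.5-fold, at 0.35 (adjusted p = 0.123) for QJSB and 0.30 (adjusted p = 0.0657) for leucogen. Csf1 was called against model only without model replicate 3, in leucogen (0.87, adjusted p = 0.0281).

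Lepr (ENSMUSG00000057722, chr4:101717404-101815352, plus strand) encodes the leptin receptor, the usual marker of perivascular stroma. It was at 18.0, 15.4 and 21.7 CPM in normal, at 34.8, 19.0 and 13.7 CPM in model, at 19.3, 14.7 and 13.4 CPM in QJSB, and at 30.9, 17.9 and 17.0 CPM in leucogen. The groups overlapped in every pair, and the largest difference, -0.53 in QJSB against model, had an adjusted p of 0.767. Cxcl12 and Lepr, which the same cells are known to make, did not keep one ratio: Cxcl12 was 3.75 to 4.68 times Lepr in FPKM in the normal libraries and 1.4 to 3.39 times in the other 9.

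Type I collagen and osteocalcin gave the largest differences among the 10 genes, all of them low in leucogen. Col1a1 (ENSMUSG00000001506, chr11:94936224-94953042, plus strand) encodes the chain present in 2 copies in the collagen I triple helix. It was at 81.2, 110 and 68.3 CPM in normal, at 305, 85.0 and 70.7 CPM in model, at 424, 65.7 and 67.7 CPM in QJSB, and at 24.2, 21.4 and 22.0 CPM in leucogen. Every leucogen library lay below every other library. Col1a1 fell in leucogen against model (log2 fold change -2.77, SE 0.623, adjusted p = 0.0252) and against normal (-1.92, SE 0.171, adjusted p = 1.64e-05), and was higher in QJSB than in leucogen (3.02, SE 0.838, adjusted p = 0.0441). The call against normal held without each of the 6 libraries in turn but not in a joint fit of all 12 libraries (-1.94, adjusted p = 0.0834). The call against model was lost without leucogen replicate 1 (adjusted p = 0.0776), 2 (0.0897) or 3 (0.0954), with values of -2.81, -2.72 and -2.75. Without model replicate 1 it held at a smaller value (-1.77, adjusted p = 0.00203). The call of QJSB against leucogen was lost in the same way without a leucogen library (adjusted p = 0.12, 0.0818 and 0.132), and without QJSB replicate 1 it held at 1.54 (adjusted p = 0.000297) in place of 3.02. Neither model against normal (0.83, adjusted p = 0.296) nor QJSB against normal (1.12, adjusted p = 0.254) passed a cutoff, with replicate 1 high and the other libraries within the normal range or just below it.

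Col1a2 (ENSMUSG00000029661, chr6:4504814-4541544, plus strand) encodes the second chain. Normal libraries were at 85.8, 135 and 70.2 CPM, model at 246, 82.7 and 48.4 CPM, QJSB at 317, 44.2 and 50.3 CPM, and leucogen at 34.0, 31.5 and 34.3 CPM. As for Col1a1, the 3 leucogen libraries were the lowest of the 12. Col1a2 fell in leucogen against normal (-1.52, SE 0.239, adjusted p = 0.00165), a call that the joint fit of 12 libraries did not make (adjusted p = 0.164), while the difference from model (-1.92, SE 0.61, adjusted p = 0.0658) passed only the unadjusted cutoff. It became a call against model without model replicate 1 (-0.96, adjusted p = 0.0252) or 3 (-2.26, adjusted p = 0.0275). In QJSB against normal the direction hung on a single library: the value was 0.52 (adjusted p = 0.613) with all 3 QJSB libraries and -1.03 (adjusted p = 0.0312) without QJSB replicate 1.

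Sparc (ENSMUSG00000018593, chr11:55394500-55420080, minus strand) encodes osteonectin, a protein that binds collagen. It was at 28.0, 38.4 and 22.4 CPM in normal, at 40.3, 24.8 and 20.9 CPM in model, at 68.3, 17.4 and 22.9 CPM in QJSB, and at 24.2, 15.95 and 19.9 CPM in leucogen. Groups overlapped in every pair, and the difference of -0.54 in leucogen against normal (adjusted p = 0.0771) passed neither cutoff. It became a call without normal replicate 3 (-0.71, adjusted p = 0.0231) or leucogen replicate 1 (-0.71, adjusted p = 0.0432).

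Bglap (ENSMUSG00000074483, chr3:88383501-88384464, minus strand) encodes osteocalcin, a product of mature osteoblasts. Its counts were 18, 14 and 14 in normal, 14, 3 and 2 in model, 15, 1 and 5 in QJSB, and 0, 2 and 0 in leucogen. The normal libraries lay above all others in CPM, and leucogen had almost nothing. Over a group, the rate in normal was 20.3 times that in leucogen (46 against 2 counts, 95% interval 5.31 to 173, counting error only) and 2.53 times that in model (46 against 19 counts, 1.45 to 4.57). Bglap fell in leucogen against normal (adjusted p = 0.00133). The difference in model (-1.46, SE 0.629, adjusted p = 0.0952) passed only the unadjusted cutoff and became a call without model replicate 1 (-2.67, adjusted p = 0.00806). That in QJSB (-1.41, adjusted p = 0.127) became a call without QJSB replicate 1 (-2.53, adjusted p = 0.0122). Bglap did not pass the filter on low counts in the 3 comparisons among the cyclophosphamide groups. Bglap lies beside 2 near copies, and 37.0% of its 100-base stretches also occur in Bglap2, so the assignment of reads among them is uncertain. Bglap2 had at most 8 and Bglap3 at most 2 counts per library.

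**Figure D3:**
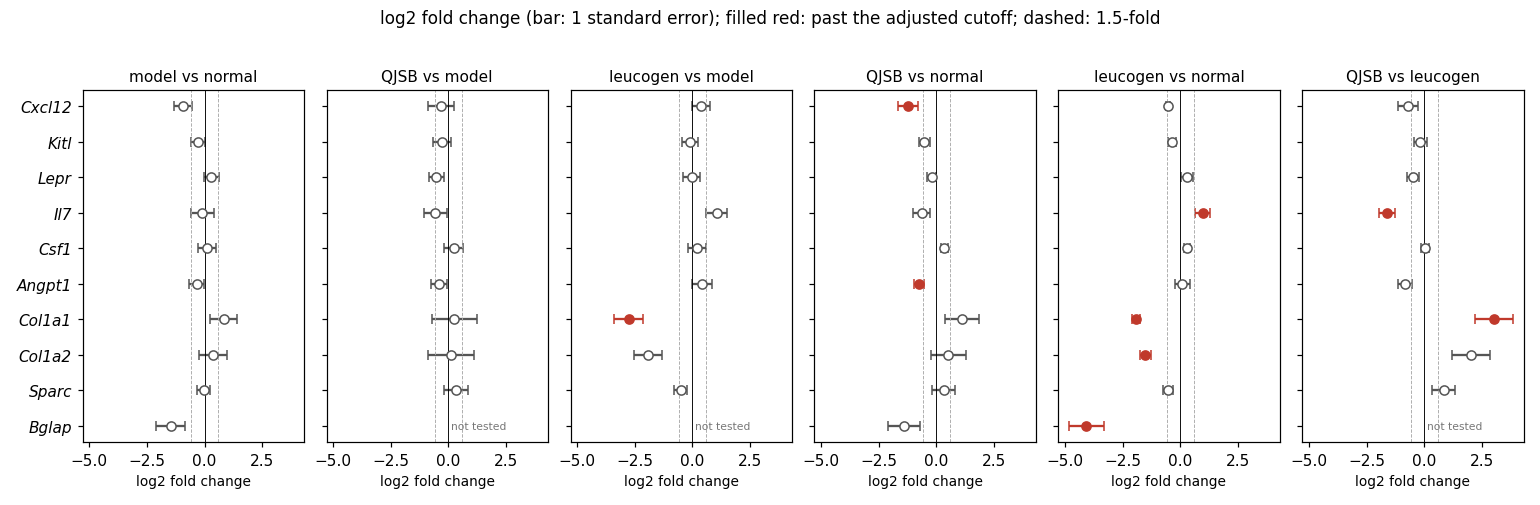
log2 fold change (horizontal axes, shared scale) of the 10 genes in 6 comparisons, 1 panel each, from the edgeR fit; bars are 1 standard error, red filled points passed the adjusted cutoff, and dashed lines mark 1.5-fold. Red points are 4 in leucogen against normal, 2 each in QJSB against normal and QJSB against leucogen, 1 in leucogen against model, and 0 in the other panels.

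Counted by comparison, 0 of the 10 genes were called in model against normal and 2 passed the unadjusted cutoff (Cxcl12 and Bglap, the 2 without overlap between groups), where 35.1% and 38.4% of all 14752 genes tested did so and 55.5% had no overlap. The median of the 10 log2 fold changes was -0.065, against 0.024 for all genes. In leucogen against model, 1 of the 9 genes tested was called (Col1a1) and 3 passed the unadjusted cutoff (with Il7 and Col1a2, again the 3 without overlap), beside 23.1%, 29.6% and 46.0% of 14184 genes. In QJSB against normal, 2 of 10 were called (Cxcl12 and Angpt1, the same 2 at the unadjusted cutoff) and 5 had no overlap, beside 37.9%, 41.6% and 58.0% of 14817 genes. In leucogen against normal, 4 of 10 were called, with Il7 higher and Col1a1, Col1a2 and Bglap lower, the same 4 at the unadjusted cutoff, and 7 had no overlap, beside 37.7%, 39.4% and 61.8% of 14637 genes. In QJSB against leucogen, 2 of 9 were called (Il7 lower and Col1a1 higher in QJSB, where 11.7% and 12.9% of all genes were), 3 passed the unadjusted cutoff (with Angpt1, lower in QJSB at -0.83, adjusted p = 0.0781) and 3 had no overlap, beside 24.6%, 30.6% and 48.8% of 14266 genes. The share of these genes called was thus near or below the share of all genes in each comparison. These comparisons share groups and are not independent of each other.

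Between QJSB and model, which asks what the granule added to cyclophosphamide, 0 of the 9 genes tested passed either cutoff and 0 had no overlap. Over all 14486 genes, 0% passed the adjusted cutoff of edgeR, where the smallest adjusted p was 0.767, 723 genes had an unadjusted P under 0.05 and DESeq2 called 8. The unadjusted cutoff was passed by 3.08% of genes and 9.80% had no overlap. The differences of the 9 genes ran from -0.57 for Il7 to 0.32 for Sparc. Their intervals of 2 standard errors were wide, from -1.68 to 2.2 for Col1a1 and from -1.43 to 0.795 for Cxcl12, so differences of several fold in either direction in Col1a1 were not detectable at this spread. Without replicate 1 of both groups, a choice made after the data were seen, Col1a1 differed by -0.25 (adjusted p = 0.716) and Cxcl12 by -0.41 (adjusted p = 0.545), and again 0 of the 9 genes were called, beside 23 of all 14399 genes tested. Without model replicate 3, Lepr, Csf1 and Angpt1 passed the unadjusted cutoff.

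Ratios between these genes within a library do not depend on its depth. Col1a1 over Col1a2 in FPKM was 2.13 ± 0.2 in normal, 2.9 ± 0.51 in model, 3.25 ± 0.2 in QJSB and 1.59 ± 0.085 in leucogen (SD, n = 3 each). Replicate 1 did not stand apart in this ratio, at 2.9 between 2.4 and 3.41 in model and at 3.13 beside 3.48 and 3.15 in QJSB. Cxcl12 over Col1a1 was 0.858 ± 0.25 in normal, 0.271 ± 0.057 in model, 0.223 ± 0.088 in QJSB and 2.12 ± 0.24 in leucogen (SD, n = 3 each). In this second ratio replicate 1 was the lowest of its group, at 0.206 against 0.293 and 0.313 in model and at 0.125 against 0.294 and 0.249 in QJSB. For both ratios the groups did not overlap in any pair except model and QJSB. In each of those pairs the two-sided exact permutation test gave p = 0.1, the smallest possible with 3 libraries against 3, and 0.12 after Benjamini-Hochberg adjustment over the 12 tests. The order of the genes by mean FPKM changed accordingly: Col1a1 was first in normal (12.2), model (24.3) and QJSB (28.3) and in leucogen came after Cxcl12 (6.55), Angpt1 (5.72) and Sparc (4.34), at 3.11. In model and QJSB the Col1a1 mean rests on replicate 1, and its SD of 21.9 and 33.0 FPKM exceeded its distance to the second gene, Col1a2. Il7 was the lowest in normal (0.12), model (0.125) and QJSB (0.0779), and Bglap in leucogen (0.0596). The 2 collagen genes made up 36.5% to 51.9% of the counts of the 10 genes in normal, 49.7% to 68.8% in model, 51.2% to 75.8% in QJSB and 21.5% to 24.3% in leucogen. GC content moved with the groups here as well: genes near the GC content of Col1a1 (58.9%) had a median log2 fold change of -0.348 in leucogen against model, and those near Col1a2 (55.7%) of -0.327. The part of this shift in the collagen values was not tested.

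**Figure D4:**
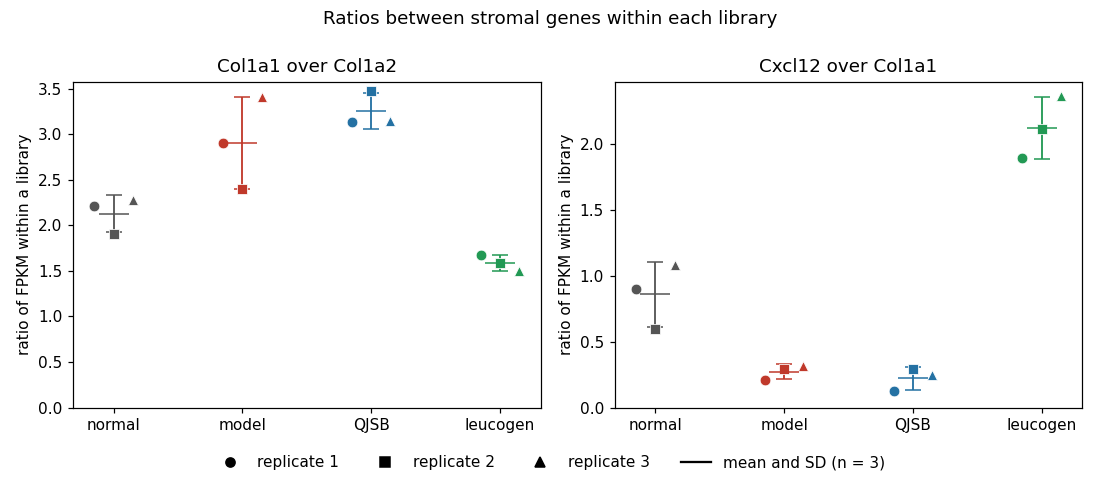
Ratio of FPKM values within each library (vertical axes from 0) for Col1a1 over Col1a2 on the left and Cxcl12 over Col1a1 on the right, by group; points are libraries with the replicate number as the symbol, and bars are the mean and SD (n = 3). Leucogen is lowest on the left (1.5 to 1.67) and highest on the right (1.89 to 2.36), and model and QJSB overlap in both.

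Several receptors of these factors are carried mostly by blood cells, while TEK, as stated above, is on endothelium and stem cells. Il7r, the interleukin 7 receptor chain of lymphoid cells, had the largest difference: 269 ± 6.37 CPM in normal, 22.4 ± 14.1 in model, 8.16 ± 4.76 in QJSB and 9.95 ± 1.78 in leucogen (SD, n = 3 each). It fell against normal in model (-3.58, adjusted p = 0.00155), in QJSB (-5.02, adjusted p = 7.66e-05) and in leucogen (-4.74, adjusted p = 1.07e-08). The called rise of the ligand Il7 in leucogen thus stood beside a fall of its receptor that model and QJSB shared. That rise rested on 23 to 34 counts per leucogen library. It was lost with DESeq2 (adjusted p = 0.097) and in the joint fit of 12 libraries (0.0834). Kit rose in model (0.62, adjusted p = 0.0145) and in QJSB (0.73, adjusted p = 0.0387) against normal. Csf1r, the receptor of CSF1 on monocytes and macrophages, rose in model (0.81, adjusted p = 0.00273) and QJSB (0.76, adjusted p = 0.0144) against normal and fell in leucogen against model (-0.98, adjusted p = 0.00434). Cxcr4, the main CXCL12 receptor, fell in leucogen against normal (-0.70, adjusted p = 0.000126), and Tek passed neither cutoff in any comparison. Ackr3, which also binds CXCL12, was not tested, with at most 9 counts per library and 0 in leucogen.

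Other genes of the same processes were counted from lists chosen with results of these data known. Of the enzymes and chaperones that make and trim collagen I, 7 rose and 0 fell of 20 tested in model against normal, where 16.1% of all genes rose and 19.0% fell, with a list median of 0.406. Scaling to total counts turned this split of all genes, from 2368 higher and 2803 lower to 3024 and 2346. P4hb, a subunit of prolyl 4-hydroxylase that is also a general chaperone of secretory cells, went from 127 to 550 CPM (2.12, adjusted p = 0.000104), and P3h1 rose by 2.14 (adjusted p = 0.000431), while Col1a1 itself was not called. In leucogen against model 1 of these genes rose and 5 fell of 21, where 11.6% of all genes rose and 11.5% fell (1150 and 2655 genes with total counts, 1641 and 1635 with TMM), with P4hb at -1.57 (adjusted p = 0.00275) and P3h1 at -1.24 (adjusted p = 0.0084). In leucogen against normal, where Col1a1 and Col1a2 fell, 5 of these genes rose and 0 fell of 19, with a list median of 0.34. Beside them, 17.8% of all genes rose and 19.8% fell there. The mean of P4hb was 184 CPM in leucogen and 127 CPM in normal. In QJSB against model 0 of 21 were called.

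Of other matrix genes, 3 rose and 3 fell of 19 in model against normal, where 16.1% of all genes rose and 19.0% fell. Fn1, fibronectin, which blood cells also make, rose by 1.71 (adjusted p = 0.00955), and Lum, a collagen-binding proteoglycan, fell by 2.47 on the log2 scale (adjusted p = 0.0335). In leucogen against model 2 rose and 1 fell of 19, where 11.6% of all genes rose and 11.5% fell. Col5a1, a chain of a minor fibril collagen, rose there by 1.74 (adjusted p = 0.0318) while Col1a1 fell, and Timp2, an inhibitor of matrix proteases, rose by 1.53 (adjusted p = 0.00177). In QJSB against model 0 of 20 were called. There Col5a1 differed by 2.38 (adjusted p = 0.767) and Eln, elastin, by 1.26 (adjusted p = 0.767), both past the unadjusted cutoff alone.

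Of the other niche factors, 0 rose and 4 fell of 9 tested in model against normal, with Il6 at -2.68 (adjusted p = 0.00449) and Igf1 at -1.55 (adjusted p = 0.0196). Beside them, 16.1% of all genes rose and 19.0% fell there, and 11.6% and 11.5% in leucogen against model. In leucogen against model 2 rose and 1 fell of 7, and the 2 that rose were Il15, a cytokine for natural killer cells (1.31, adjusted p = 0.00463), and Jag1, a Notch ligand (1.30, adjusted p = 0.0128). In QJSB against model 0 of 9 were called. Csf2, Csf3, Thpo and Ptn had no more than 10 counts over all 12 libraries.

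Markers of the cell types that marrow samples can hold were counted the same way, and their part in the values above was not tested. Beside them, 16.1% of all genes rose and 19.0% fell in model against normal. In leucogen against model the shares were 11.6% and 11.5%, and in leucogen against normal 17.8% and 19.8%. Of the reticular stroma markers, 2 rose and 0 fell of 11 in model against normal (Ebf3 at 1.09, adjusted p = 0.0145, and Pdgfrb at 0.95, adjusted p = 0.0271), and 1 rose and 1 fell in leucogen against model (Prrx1 at 1.32, adjusted p = 0.0148, and Adipoq at -1.60, adjusted p = 0.0268). Of these 11 markers, 7 had a positive log2 fold change in model against normal, and 1 was lower at the unadjusted cutoff alone. The mean of Lpl was 45.46 CPM in normal and 19.97 CPM in model. Cxcl14 (2.61 and 1.46 CPM), Adipoq (4.94 and 3.76 CPM) and Prrx1 (4.14 and 2.97 CPM) were also lower in model. The reticular stroma sum was 91.7 to 101 CPM in normal. It was 122, 63.0 and 64.4 CPM in model replicates 1, 2 and 3, and 78.0 to 99.1 CPM in leucogen. Of the osteoblast markers, 0 rose and 2 fell of 8 in model against normal, Alpl (-1.61, adjusted p = 0.0408) and Ibsp (-1.36, adjusted p = 0.0303), and 0 of 5 were called in leucogen against model. In leucogen against normal 0 rose and 3 fell of 8: Ibsp, bone sialoprotein, from 13.3 to 2.36 CPM (-2.47, adjusted p = 0.00752), Alpl, the phosphatase of bone mineral, from 3.32 to 0.677 CPM (-2.22, adjusted p = 0.00212), and Phex (-0.95, adjusted p = 0.0163). The osteoblast sum hides this, at 95.7 to 110 CPM in leucogen against 114 to 125 CPM in normal, because Runx2, a transcription factor, makes up most of it with means of 72.6 and 75.0 CPM. Of the endothelial markers, 5 rose and 0 fell of 12 in model against normal, led by Flt1 (2.03, adjusted p = 0.000327) and Tie1 (1.06, adjusted p = 0.00647), and 0 were called in leucogen against model. In model against normal 9 of the 12 had a positive log2 fold change. Pecam1 was lower, with means of 107 CPM in normal and 72.6 CPM in model, as was Eng (12.3 and 9.34 CPM). The endothelial sum was 140 to 184 CPM in model and 152 to 169 CPM in normal. Of the macrophage markers, 7 fell of 10 in model against normal, with C1qc at -1.94 (adjusted p = 0.000205) and Timd4 at -1.94 (adjusted p = 0.00134), and 3 fell in leucogen against model, with Cd163 at -2.01 (adjusted p = 0.0219) and Adgre1 at -1.28 (adjusted p = 0.0273). Osteoclast markers gave 2 rises and 1 fall of 5 in model against normal, with Atp6v0d2 at 1.69 (adjusted p = 0.00384) and Acp5 at -2.06 (adjusted p = 0.00117), and 0 calls in leucogen against model. Of the adipocyte markers, 1 fell of 5 in model against normal, Pparg (-1.02, adjusted p = 0.0181), and 2 fell of 4 in leucogen against model, Adipoq and Fabp4 (-0.74, adjusted p = 0.0498). Megakaryocyte and skeletal muscle markers gave 0 calls of 10 each in both comparisons, with summed muscle markers from 9.28 to 212 CPM per library. Of the 8 cartilage markers, 5 had no more than 10 counts over all libraries, and the list summed to 0.192 to 2.68 CPM. In QJSB against model 0 markers of any of these cell types were called.

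The genes with the most similar profile to a member were searched among 11853 genes with a mean of at least 1 CPM over the 12 libraries, by the root-mean-square difference of mean-centred log2 CPM. Near to Cxcl12 were Lpl (0.226), Pcdhga6 (0.312), Xaf1 (0.336) and Inpp4b (0.343), beside a spread of 0.743 of Cxcl12 itself over the libraries. Col1a2 was the nearest gene to Col1a1 (0.421), ahead of Slc27a1 (0.628), Pvrl1 (0.643), Cep170b (0.655) and Bmyc (0.685), beside a spread of 1.28. Nearest to Sparc were Gja1 (0.262), Col5a2 (0.268), Plod2 (0.275), Adamts3 (0.305) and Zfp521 (0.328), beside a spread of 0.564. Among the 10 genes, the closest pairs were Lepr with Angpt1 (0.29), Kitl with Lepr (0.292), Kitl with Angpt1 (0.326) and Col1a1 with Col1a2 (0.421), and the furthest was Il7 with Col1a1 (1.68). These distances share the 12 libraries and their depths and are descriptions only.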

How the data were processed

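Per the study's methods, strand-specific libraries were made from RNA depleted of ribosomal RNA, and the authors cleaned the reads (Seqtk) before alignment with Hisat2 against GRCm38.p4; the counting program is not given in the sources used here. The deposited table holds whole-number counts per gene, without normalization, and FPKM that the authors computed from fragments, transcript length and total fragments; 0 columns were left unused. The readings of the column headings were checked against the group means in the study's supplementary gene lists: 300 of 300 genes of each list matched within 1% in the columns assigned. The 10 genes and all gene lists were chosen with earlier results of these data known.

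Counts were tested in edgeR 4.0.16 (R 4.3.3; TMM, filterByExpr, robust glmQLFit, glmQLFTest), with only the libraries of the 2 groups compared, and adjusted by Benjamini-Hochberg over all genes tested; SE is the log2 fold change divided by the root of F. Replicates of a group are separate mice and differed by more than counting noise in every pair (chi-square per degree of freedom 10.2 to 99.6). Same-numbered libraries deviated together for QJSB and model (correlations of deviations 0.426, 0.123 and 0.107 over 15310 genes), a pairing seen in the data alone. For QJSB and leucogen these correlations were 0.181, 0.134 and 0.078. Named genes were the 10 members, their receptors, the Bglap copies, the 2 largest adjusted calls of each list and the 5 nearest profiles, 1 of which is not reported here. Alternatives were DESeq2 1.42.0, DESeq2 size factors, total counts for scaling, no filter on counts, a minimum of 10 counts per library, a joint fit of the 12 libraries, a replicate block, limma-trend (limma 3.58.1) on log2(FPKM + 0.1) with and without a filter and on log2(FPKM + 1), and each library left out. GC content was taken from the longest GENCODE M21 transcript. RefSeq promoter windows were found for 7 of the 10 genes.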

Additional observations from a re-analysis of the deposited data

Results flagged for a closer look

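The change from model differed between the 2 drugs for 2 of the 9 genes tested, by the direct edgeR comparison of QJSB with leucogen. For Col1a1 the change under QJSB was 3.02 higher on the log2 scale than under leucogen (adjusted p = 0.0441), and without QJSB replicate 1 the difference was 1.54 (adjusted p = 0.000297). That Col1a1 call was lost without leucogen replicate 1, 2 or 3 (adjusted p = 0.12, 0.0818 and 0.132) and without a filter on counts (0.126). For Il7 the difference was -1.61 (adjusted p = 0.0092), with all 3 QJSB libraries below all 3 leucogen libraries. The Il7 call was lost with limma-trend on log2(FPKM + 0.1) (adjusted p = 0.0909) and on log2(FPKM + 1) (0.112). With 3 libraries per group no test for single outlying samples was made.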

How the results depend on the processing

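The main limits are 3 mice per group, replicate 1 of model and QJSB, and the low counts of Il7 and Bglap. Counts past the adjusted cutoff were, in model against normal (0), 1 with DESeq2 and 1 with the replicate block (Cxcl12, adjusted p = 0.0453), and 0 to 3 with a library left out. In leucogen against model (1) they were 2 with DESeq2, 0 without a filter and 0 to 3 with a library left out. In QJSB against normal (2) they were 0 with total counts, 1 without a filter, 1 with all 12 libraries in one fit, 1 with limma-trend on log2(FPKM + 0.1), 1 on log2(FPKM + 1), 0 on log2(FPKM + 0.1) without a filter, and 0 to 5 with a library left out, where Col1a2 ran from -1.03 to 0.942 and reversed without QJSB replicate 1. In leucogen against normal (4) 1 was left with all 12 libraries (Bglap), 3 with DESeq2, 5 with total counts, 3 with limma-trend on log2(FPKM + 1), and 3 to 5 with a library left out. In QJSB against leucogen (2) they were 3 with DESeq2, 1 without a filter, 1 with each of the 3 limma-trend fits, and 1 to 3 with a library left out. The replicate block lost Col1a1 there (2.41, adjusted p = 0.0774) and gained Angpt1 (-0.77, adjusted p = 0.021); in leucogen against normal it lost Il7 (adjusted p = 0.0515). For QJSB and model, whose same-numbered libraries deviated together though the labels give no pairing, the block changed no call among the 10 genes.

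Past the unadjusted cutoff, model against normal (2) had 1 with DESeq2, 0 with total counts, 1 without a filter, 1 at a minimum of 10 counts, 0 with all 12 libraries, and 0 to 4 with a library left out. QJSB against model (0) had 0 to 3 and leucogen against model (3) 1 to 4 with a library left out. QJSB against normal (2) had 1 with all 12 libraries and 1 to 5 with a library left out. QJSB against leucogen (3) had 5 with DESeq2, 5 with all 12 libraries, 1 with limma-trend on log2(FPKM + 1), and 2 to 5 with a library left out. The cause of these changes was not tested. Total counts shifted the median of all genes to 0.144 in model against normal to -0.224 in leucogen against model and to 0.119 in QJSB against leucogen.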
